A study of Mus musculus with 2 samples.

Results

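The genes described are 10 members of the LIM and PDZ-LIM families, grouped as Z-disc proteins, although several are expressed in many tissues. Chosen by gene symbol, they include Ldb3, Pdlim5 and Pdlim7 (the Enigma group) and Pdlim1 and Pdlim3 (the ALP group). The set also holds Csrp1, Csrp2 and Csrp3 (the cysteine and glycine-rich proteins, or CRP group). Fhl1 and Fhl2 form the four-and-a-half-LIM group. These 10 genes, of the 43346 Ensembl genes quantified, were all found by symbol in both libraries. The tissue was heart from mouse embryos of strain B6NCrl at embryonic day 15.5, with both sexes pooled and no treatment or altered allele named. Replicate 1 pooled 78 embryos and replicate 2 pooled 62 embryos, and total RNA above 200 nucleotides was sequenced from 10 ng with spike-in transcripts added. There is 1 group, so the comparisons are between related genes and transcripts inside a library and between the 2 libraries.

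The 2 libraries held 41883313 and 39697992 estimated reads, of which spike-ins took 1.58% in replicate 1 and 3.12% in replicate 2. Levels are given in TPM, the length-corrected abundance of a transcript relative to all transcripts of its library. Each of the 12 cardiomyocyte marker genes reached 1 TPM in both libraries, and their summed level was 45535 TPM in replicate 1 and 39795 TPM in replicate 2. The libraries also differed in markers of other organs. The summed level of 8 thymus genes was 16.3 TPM in replicate 1 and 168 TPM in replicate 2, that of 6 liver genes 44.6 and 205 TPM, that of 6 lung epithelium genes 127 and 301 TPM, and that of 6 neuron and neural crest genes 13.0 and 51.8 TPM. Replicate 2 was the higher library for all 4 of these lists, so values of the 10 genes are given for each library.

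A LIM domain is a pair of zinc fingers that binds other proteins, and a PDZ domain is a small fold that grips the tail or an inner motif of a partner. At the Z-disc, where the actin filaments of neighbouring sarcomeres are anchored, the PDZ domains of the Enigma and ALP proteins bind alpha-actinin, and the LIM domains of the Enigma proteins bind protein kinases. The CRP and FHL proteins have LIM domains and no PDZ domain, and they move between the cytoskeleton and the nucleus. Ldb3 (also called ZASP or Cypher) and Csrp3 (muscle LIM protein) are known as striated muscle genes in which human mutations cause cardiomyopathy, while Pdlim1, Pdlim7, Csrp1 and Csrp2 are expressed in many tissues.

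All 10 genes were detected at 1 TPM or more in both libraries, against 58.2% of protein-coding genes. All 10 also stood at 100 TPM or more in both libraries, a level that 5.50% of protein-coding genes reached. Their median of the mean level was 205 TPM, beside 15.8 TPM over the 12491 protein-coding genes at 1 TPM or more. The 10 genes were chosen with earlier results of these data known, so these differences from all genes may follow in part from the choice. In tissue RNA of this kind, fewer cells of a type and less RNA per cell cannot be told apart.

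Csrp3 was the highest of the 10, at 1585 TPM in replicate 1 and 1234 TPM in replicate 2 (mean 1409 ± 248, SD, n = 2), which is rank 54 among 21474 protein-coding genes. It alone made up 47.6% of the summed TPM of the 10 genes in replicate 1 and 42.1% in replicate 2. Fhl2, a LIM-only protein abundant in heart, followed at 300.2 and 246 TPM. Ldb3 stood at 243 and 246 TPM. The gap between Csrp3 and Fhl2 was 2.40 on the log2 scale in replicate 1 and 2.33 in replicate 2, and their ranges did not overlap.

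Csrp2 was at 239.6 TPM in replicate 1 and 214 TPM in replicate 2. Pdlim1 was at 201 and 230.1 TPM. Pdlim7, which is known from bone and fibroblasts as well as muscle, was at 183 and 206 TPM. Csrp2 and Pdlim1 changed places between the libraries. Fhl1, the other four-and-a-half-LIM member, was at 156 and 167 TPM. Pdlim5 (also called ENH), a scaffold for protein kinase C, was at 154 and 125 TPM. Pdlim3 (ALP, the actinin-associated LIM protein) was at 144 and 121 TPM. Csrp1 was the lowest by mean level, at 123 and 139 TPM, and it lay above both Pdlim3 and Pdlim5 in replicate 2. Along the whole order, the ranges of 5 of the 9 neighbouring pairs overlapped: Fhl2 with Ldb3, Csrp2 with Pdlim1, Pdlim1 with Pdlim7, Pdlim5 with Pdlim3, and Pdlim3 with Csrp1.

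**Figure D1:**
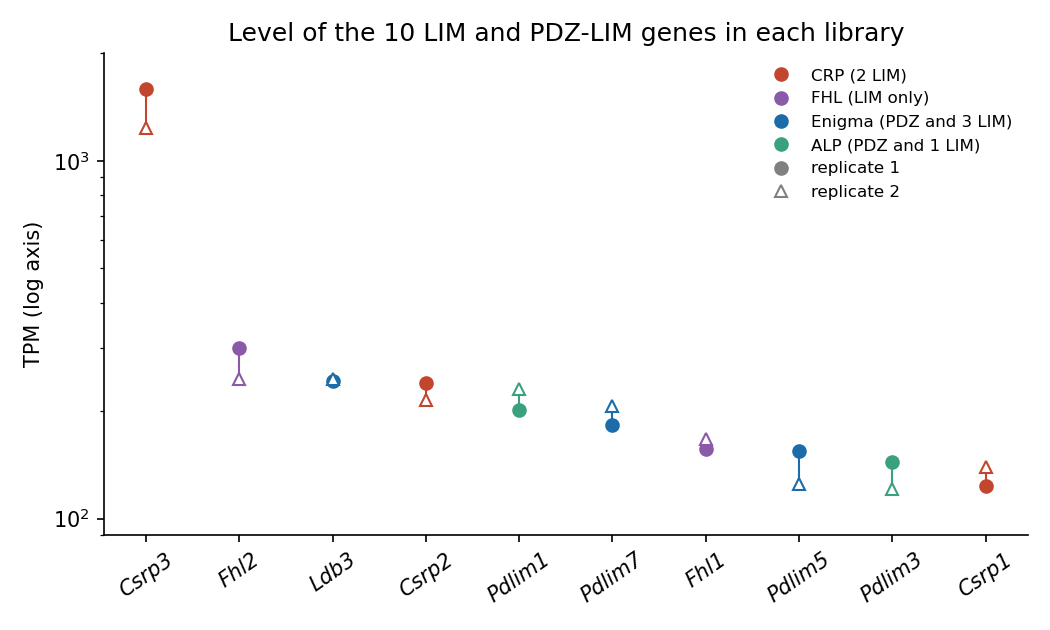
TPM (log axis) of the 10 genes in each library, ordered by mean level; filled circles are replicate 1, open triangles replicate 2, and colours mark the 4 protein groups. Csrp3 lies at 1585 and 1234 TPM and the other 9 genes lie between 121 and 300.2 TPM.

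The CRP genes differ in where they are known to act: Csrp3 in striated muscle, Csrp1 and Csrp2 in smooth muscle and other tissues. Their proteins each hold 2 LIM domains, and their coding sequences align at 73.7% identity for Csrp1 with Csrp2, 68.5% for Csrp1 with Csrp3 and 66.8% for Csrp2 with Csrp3. The first LIM domain is shown for the 3 genes because the ratios of Csrp3 to its relatives were the largest of the 9 pairs of related genes compared and rest on telling similar sequences apart. The stretches are 156 bases of the coding strand read across exons, 5′ to 3′, from GENCODE transcripts on GRCm38 (mm10). Csrp3 lies on chromosome 7 (minus strand, gene 48830398 to 48848033), Csrp1 on chromosome 1 (plus strand, 135720061 to 135752232) and Csrp2 on chromosome 10 (plus strand, 110919789 to 110939622). Capitals mark the codons of the 8 zinc-binding residues.
Csrp3 LIM1: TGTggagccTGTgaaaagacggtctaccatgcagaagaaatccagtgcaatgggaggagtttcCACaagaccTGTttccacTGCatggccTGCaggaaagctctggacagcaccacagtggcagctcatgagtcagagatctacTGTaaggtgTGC
Csrp1 LIM1: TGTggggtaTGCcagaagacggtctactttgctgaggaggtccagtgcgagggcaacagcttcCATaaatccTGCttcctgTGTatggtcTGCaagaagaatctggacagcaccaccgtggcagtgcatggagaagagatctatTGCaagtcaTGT
Csrp2 LIM1: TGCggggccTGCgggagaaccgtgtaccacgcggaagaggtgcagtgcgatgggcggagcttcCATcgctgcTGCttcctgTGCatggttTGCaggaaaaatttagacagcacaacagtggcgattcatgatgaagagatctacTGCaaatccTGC
Over these 156 bases, Csrp3 matched Csrp1 at 113 positions and Csrp2 at 112, and Csrp1 matched Csrp2 at 115. No 2 of the 10 genes had transcripts sharing an exact run above 34 bases (Fhl1 with Pdlim5), and the estimated counts of all 3 CRP genes were whole numbers to within 0.005 in both libraries.

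Csrp3 exceeded Csrp1 by 3.69 on the log2 scale of TPM in replicate 1 and by 3.15 in replicate 2 (mean 3.42 ± 0.38, SD, n = 2), a 10.7-fold ratio. It exceeded Csrp2 by 2.72 and 2.53 (mean 2.63 ± 0.14, SD, n = 2), a 6.17-fold ratio. Both were larger than 0.89, the 95th percentile of the absolute log2 TPM ratio between the libraries over 13823 genes at 1 TPM or more in both. That value is used here as the spread a ratio has to exceed, by its mean and with the same sign in both libraries. It describes changes of single genes between the libraries, not those of a ratio between 2 genes. The SDs of the 9 ratios between the libraries ran from 0.11 to 0.38 (n = 2). A ratio below 0.89 can therefore still repeat between the libraries. No p is given, since 2 libraries allow none below 0.5. Of the summed CRP level, Csrp3 held 81.4% in replicate 1 and 77.8% in replicate 2. Csrp2 held 12.3% and 13.5%, and Csrp1 held 6.32% and 8.74%. The log2 ratio of Csrp1 to Csrp2 was -0.96 and -0.63. Its mean of -0.79 did not exceed the spread, although replicate 1 alone did, and on estimated counts without length normalization its mean turned to 0.19. On those counts Csrp3 exceeded Csrp1 by a mean of 2.31, less than on TPM, and Csrp2 by 2.49.

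Few transcripts of the CRP genes were quantified, 2 of Csrp1, 2 of Csrp3 and 1 of Csrp2, so little variation could be seen. Those of Csrp1 share a coding length of 579 bases and those of Csrp3 one of 582 bases. Csrp1-201 held 99.12% of the Csrp1 level in replicate 1 and 98.68% in replicate 2, and Csrp3-201 held 99.93% and 99.9% of Csrp3. The later annotation (GENCODE M21) adds 6 transcripts of Csrp2 and 2 of Csrp3 that were not quantified. The summed level of 12 smooth muscle and pericyte markers, a cell type in which Csrp1 and Csrp2 are known, was 1649 TPM in replicate 1 and 1704 TPM in replicate 2. Most of that sum was Acta2 (1036 and 1065 TPM) and Des (346 and 307 TPM), both also expressed in cardiomyocytes of the embryo, and Des is also in the Z-disc list used below. Myh11, the smooth muscle myosin, was at 3.83 and 10.6 TPM, Mylk at 4.78 and 9.55 TPM and Lmod1 at 1.69 and 2.97 TPM. Their part in the levels of Csrp1 and Csrp2 was not tested.

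**Figure D2:**
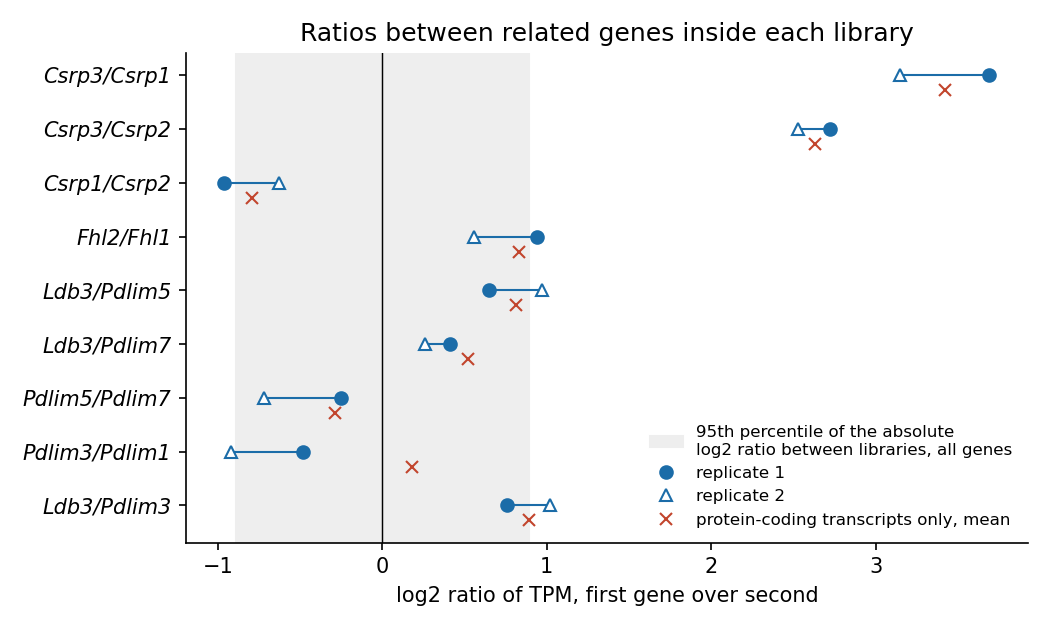
Log2 ratio of TPM between 9 pairs of related genes in replicate 1 (circles) and replicate 2 (triangles), with the mean over protein-coding transcripts alone as crosses; the grey band reaches 0.89 on either side. Csrp3 lies far outside the band against Csrp1 and Csrp2, Ldb3/Pdlim3 lies at its edge, and the cross for Pdlim3/Pdlim1 is on the other side of 0 from its circle and triangle.

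Fhl2 is best known in heart, and Fhl1 in skeletal muscle and in the stressed heart. Fhl2 (chromosome 1, minus strand, 43123074 to 43196984) exceeded Fhl1 (chromosome X, plus strand, 56731787 to 56793346) by 0.94 on the log2 TPM scale in replicate 1 and by 0.56 in replicate 2 (mean 0.75 ± 0.27, SD, n = 2). The sign was the same in both libraries, but the mean was below the spread of 0.89. On estimated counts without length normalization the ratio was 0.36 in replicate 1 and -0.03 in replicate 2. Fhl2 made up 65.8% of the summed level of the pair in replicate 1 and 59.5% in replicate 2. A pseudogene on the opposite strand of Fhl2, Gm8210, was listed at 1.74 and 0.8 TPM, and no source used here states whether the counting used strand.

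Nearly all of the Fhl2 level was in 2 transcripts with coding sequences of 837 bases each. Fhl2-201 held 67.48% in replicate 1 and 63.07% in replicate 2, and Fhl2-202 held 32.07% and 36.08%. Fhl1 was spread over more forms. Fhl1-201, which codes for the full set of 4 LIM domains found by the search, held 66.17% and 70.45%, or 103.17 and 117.54 TPM. Fhl1-204, with 888 coding bases and 4 LIM domains, held 18.29% and 13.45%. Fhl1-202, in which 2 LIM domains were found, held 6.13% and 5.44%. A transcript of Fhl1 annotated as not protein-coding held 4.38% and 5.75%.

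Fhl1-203 carries an additional 200-base coding exon (X, 56791239 to 56791438, plus strand) and codes for 3 LIM domains, so its protein ends differently from that of Fhl1-201. Its level was 6.63 TPM in replicate 1 and 6.91 TPM in replicate 2, or 4.25% and 4.14% of Fhl1. The authors' interval for it was 5.47 to 7.46 TPM in replicate 1 and 5.7 to 7.93 TPM in replicate 2. The exon's first 120 bases are shown because they separate this form from the others.
Fhl1 inserted exon: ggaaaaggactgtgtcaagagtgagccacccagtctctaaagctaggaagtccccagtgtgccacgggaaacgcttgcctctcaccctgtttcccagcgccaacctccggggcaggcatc
The form was thus present at a low and similar level in both libraries.

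In the Enigma group, Ldb3 had the highest level, but over all transcripts no mean ratio within the group exceeded the spread. Ldb3 over Pdlim5 was 0.65 in replicate 1 and 0.97 in replicate 2 on the log2 TPM scale (mean 0.81 ± 0.23, SD, n = 2), above 0.89 in replicate 2 alone. Ldb3 over Pdlim7 was 0.41 and 0.26. Pdlim5 over Pdlim7 was -0.25 and -0.72. Ldb3 held 41.9% of the summed level of the 3 genes in replicate 1 and 42.6% in replicate 2, and that sum was 579 and 578 TPM. On estimated counts without length normalization, Ldb3 exceeded Pdlim5 by a mean of 1.09 and Pdlim7 by 1.77, and Pdlim5 over Pdlim7 turned to 0.68.

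The 3 genes share a fork in their transcripts. A 37-base coding exon is followed either by a short last coding exon of 94, 91 and 94 bases in Ldb3, Pdlim5 and Pdlim7, which ends the protein after the PDZ domain and before any LIM domain, or by the exons of the long form with 3 LIM domains. The sequences at the fork are shown because the share of each form differed between Ldb3 and its relatives Pdlim5 and Pdlim7. They are coding-strand sequences 5′ to 3′ from GENCODE M21 on GRCm38 (mm10), and all 3 genes are on the minus strand. Lower case marks the 37-base exon common to both forms and capitals mark what follows it, without the stop codon. For the long forms, as many bases are shown as the short form has, so that the Pdlim7 long sequence runs on into a further exon.
Ldb3 short: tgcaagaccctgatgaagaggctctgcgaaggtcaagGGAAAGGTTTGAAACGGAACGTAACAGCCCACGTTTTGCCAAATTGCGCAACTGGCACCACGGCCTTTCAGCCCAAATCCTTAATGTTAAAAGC
Ldb3 long: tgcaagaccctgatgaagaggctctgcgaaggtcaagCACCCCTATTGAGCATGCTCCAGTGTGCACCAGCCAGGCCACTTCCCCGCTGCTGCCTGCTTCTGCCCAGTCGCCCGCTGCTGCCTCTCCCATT
Pdlim5 short: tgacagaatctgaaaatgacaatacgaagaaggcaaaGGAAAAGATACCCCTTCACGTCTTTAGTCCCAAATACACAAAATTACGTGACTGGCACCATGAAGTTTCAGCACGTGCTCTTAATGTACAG
Pdlim5 long: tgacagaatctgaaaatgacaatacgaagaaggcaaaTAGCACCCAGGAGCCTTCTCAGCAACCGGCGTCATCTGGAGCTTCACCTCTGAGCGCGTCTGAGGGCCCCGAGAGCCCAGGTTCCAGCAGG
Pdlim7 short: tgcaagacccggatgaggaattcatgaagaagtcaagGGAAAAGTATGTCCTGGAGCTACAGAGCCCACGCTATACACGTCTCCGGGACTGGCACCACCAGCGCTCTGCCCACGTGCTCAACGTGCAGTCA
Pdlim7 long: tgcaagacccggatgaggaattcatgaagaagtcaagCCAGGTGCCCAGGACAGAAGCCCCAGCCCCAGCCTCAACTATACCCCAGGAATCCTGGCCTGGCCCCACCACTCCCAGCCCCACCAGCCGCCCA
In Ldb3 (chromosome 14, gene 34526603 to 34588682) the short last coding exon lies at 34561788 to 34561881 and the next exon of the long form at 34555343 to 34555528. In Pdlim5 (chromosome 3, 142239590 to 142395696) they lie at 142303331 to 142303421 and 142277817 to 142278001. In Pdlim7 (chromosome 13, 55495795 to 55513676) they lie at 55507030 to 55507123 and 55506306 to 55506367.

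The short last coding exons of the 3 genes could be aligned with each other. Ldb3 and Pdlim7 matched at 58.5% of alignment positions, gaps included, Ldb3 and Pdlim5 at 57.9%, and Pdlim5 and Pdlim7 at 57.3%. The longest run common to all 3 was 10 bases, ACTGGCACCA. The stretches of the same lengths from the long forms shared a run of at most 6 bases. Over the whole long coding sequences, identity was 49.2% for Ldb3 with Pdlim5, 49.2% for Pdlim5 with Pdlim7 and 43.6% for Ldb3 with Pdlim7. Gap positions count here too, and these sequences differ in length (2169 bases in Ldb3, 1773 in Pdlim5 and 1371 in Pdlim7). Unequal length lowers such values, so they cannot be set against those of the short exons.

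Short forms without a LIM domain made up most of the TPM of all 3 Enigma genes in both libraries. In Ldb3 the short form Ldb3-203 (981 coding bases) held 55.33% in replicate 1 and 58.64% in replicate 2, while transcripts coding for LIM domains held 44.7% and 41.4%. In Pdlim5 the 1 LIM-coding transcript, Pdlim5-201, held 22.03% and 23.17%, and coding forms without a LIM domain held 78.0% and 76.8%. In Pdlim7 these shares were 17.7% and 21.5% for the LIM-coding form and 70.4% and 65.2% for coding forms without one. The difference between Ldb3 and the other 2 genes was larger than the spread between libraries within any of them, whose SDs were 2.33, 0.806 and 2.67 percentage points (n = 2).

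The lead of the short form in Ldb3 depended on length normalization. The long transcript Ldb3-201 is 5040 bases in the files and Ldb3-203 is 1623 bases, so a molecule of the long form yields more reads. As a share of estimated counts, LIM-coding transcripts held 72.3% of Ldb3 in replicate 1 and 69.5% in replicate 2. The same measure gave 43.6% and 46.3% for Pdlim5 and 26.3% and 30.4% for Pdlim7, where the LIM-coding forms stayed below 50% on both scales. By counts, coding forms without a LIM domain held 56.4% and 53.7% of Pdlim5, and 56.0% and 49.2% of Pdlim7. In Pdlim7 they thus no longer made up most of the counts in replicate 2. The order of the 3 genes by LIM-coding share had Ldb3 first on both scales.

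**Figure D3:**
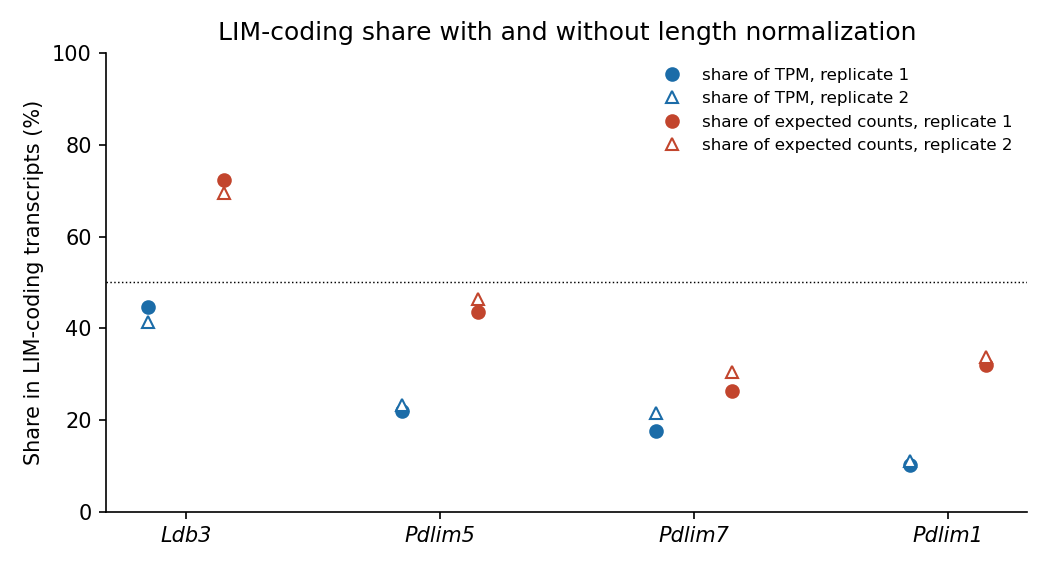
Share of each gene's TPM (blue) and of its estimated counts (red) in LIM-coding transcripts, for Ldb3, Pdlim5, Pdlim7 and Pdlim1 in replicate 1 (circles) and replicate 2 (triangles); the dotted line is 50%. Ldb3 crosses the line between the 2 scales, and the other 3 genes stay below it.

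Expressed as levels, LIM-coding transcripts of Ldb3 stood at 108 TPM in replicate 1 and 102 TPM in replicate 2. Those of Pdlim5 stood at 33.9 and 29.0 TPM, and those of Pdlim7 at 32.4 and 44.3 TPM. The ranges of Pdlim5 and Pdlim7 overlapped, and that of Ldb3 lay above both. The coding forms without a LIM domain were closer to each other, at 134 and 144 TPM for Ldb3, 120.1 and 96.3 TPM for Pdlim5, and 129 and 134 TPM for Pdlim7.

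The short form was carried by different numbers of transcripts. Pdlim5-205 held 69.4% of Pdlim5 in replicate 1 and 63.95% in replicate 2, or 106.93 and 80.16 TPM. A second short transcript of Pdlim5 with the same coding length of 717 bases, Pdlim5-202, held 7.77% and 12.88%. In Pdlim7, Pdlim7-202 held 56.09% and 51.9% and Pdlim7-203 held 11.64% and 11.07%. Transcripts of Pdlim7 that do not code for protein held 11.4% and 13.1%, with Pdlim7-205, a retained-intron transcript, at 5.34% and 5.47%. The later annotation lists 8 transcripts of Pdlim5 and 3 of Ldb3 that the files do not hold and that were therefore not quantified.

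Ldb3 has a second choice, upstream of the fork, between an exon known as the heart form and exons known from skeletal muscle. Transcripts with the heart-type coding exon of 359 bases (34576986 to 34577344) held 96.0% of the Ldb3 level in replicate 1 and 96.2% in replicate 2. Transcripts with the skeletal-type exons of 23 and 204 coding bases (the second at 34571718 to 34571921) held 3.98% and 3.85%. The heart-type share includes the short form Ldb3-203, at 55.33% and 58.64%. No short form with the skeletal-type exons was quantified. Both choices were thus open only to LIM-coding transcripts, which held 44.7% and 41.4% of Ldb3. As at the fork, these shares are of length-normalized TPM. The first 120 bases of the 359-base and the 204-base exon are shown to set the alternatives side by side.
Ldb3 heart-type: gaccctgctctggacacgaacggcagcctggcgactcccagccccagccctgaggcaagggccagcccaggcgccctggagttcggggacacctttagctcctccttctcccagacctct
Ldb3 skeletal-type: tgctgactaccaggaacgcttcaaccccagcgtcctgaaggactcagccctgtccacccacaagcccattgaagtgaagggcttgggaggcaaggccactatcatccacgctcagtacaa
The skeletal-type level was nearly all Ldb3-205, at 9.17 TPM in replicate 1 (authors' interval 7.74 to 10.48) and 9.46 TPM in replicate 2 (7.81 to 10.61). Of 14 skeletal muscle markers, 7 reached 1 TPM in each library, and their summed level was 187 and 194 TPM. Acta1, an actin also expressed in heart, was the highest at 149 TPM, Pax7 was at 0 in both libraries and Myf5 at 0 in 1. Their part in the skeletal-type share was not tested.

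**Figure D4:**
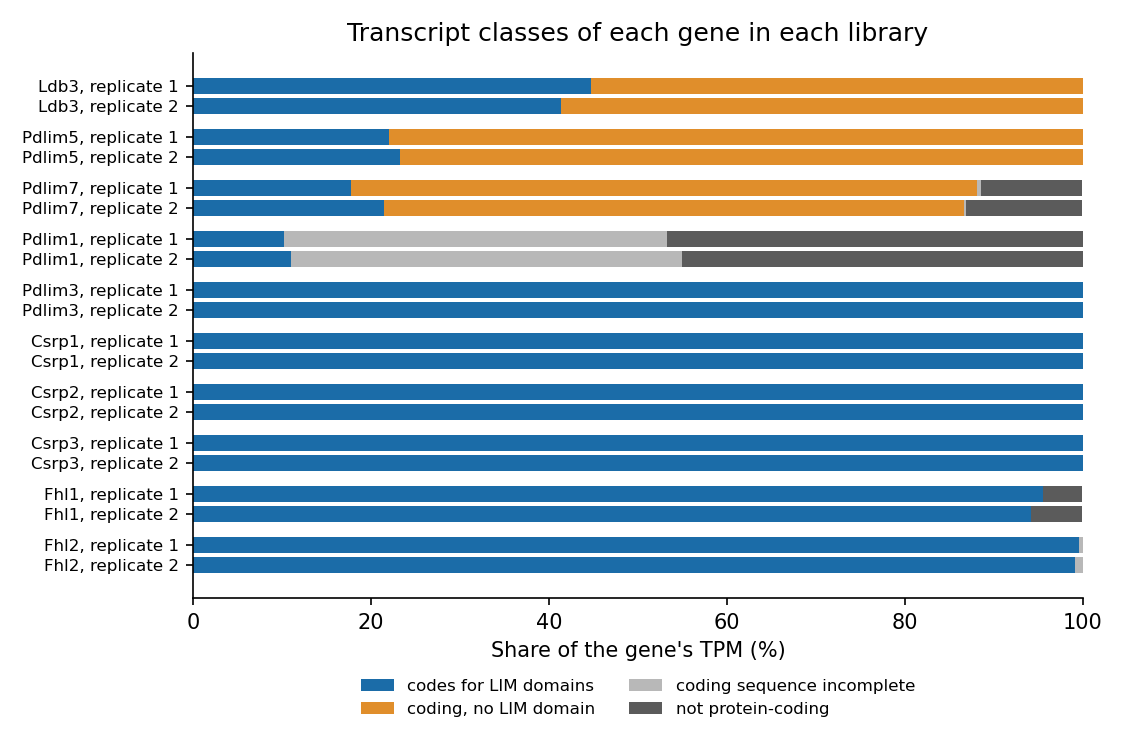
Share of each gene's TPM in transcripts that code for LIM domains (blue), code for protein without one (orange), have an incomplete annotated coding sequence (light grey) or are not protein-coding (dark grey), 1 bar for each library. The CRP and FHL genes and Pdlim3 are nearly all blue, the 3 Enigma genes are mostly orange, and Pdlim1 is mostly grey.

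In the ALP group, which codes for a PDZ domain and 1 LIM domain, Pdlim1 was the higher gene by total TPM in both libraries, and by coding transcripts in replicate 2 alone. Pdlim3 over Pdlim1 was -0.48 in replicate 1 and -0.92 in replicate 2 on the log2 TPM scale (mean -0.70 ± 0.31, SD, n = 2). Counting protein-coding transcripts alone, it was 0.43 in replicate 1 and -0.06 in replicate 2 (mean 0.18 ± 0.34, SD, n = 2), so that the sign differed between the libraries and the mean was smaller than its SD. The total-TPM ratio did not exceed the spread either.

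Pdlim1 (chromosome 19, minus strand, 40221173 to 40271842) was divided over transcripts of several kinds. The complete LIM-coding transcript Pdlim1-201 held 10.2% of its TPM in replicate 1 and 11.0% in replicate 2, or 20.49 and 25.42 TPM. Pdlim1-202, a transcript of 692 bases whose annotated coding sequence has no end, held 43.1% and 43.99%. Retained-intron transcripts held 46.7% and 45.0%, among them Pdlim1-203 at 20.48% and 19.2% and Pdlim1-205 at 25.92% and 25.33%. By estimated counts, Pdlim1-201 held 32.0% and 33.8%. Pdlim1 was also the 1 gene of the 10 whose estimated counts were not whole numbers, to within 0.005, in both libraries.

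Pdlim3 (chromosome 8, plus strand, 45885461 to 45919548) was quantified as a single LIM-coding transcript, Pdlim3-201. Its 3 other transcripts in the later annotation were not in the files, so its splice forms cannot be compared here. By LIM-coding TPM, Pdlim3 stood at 144 and 121 TPM and Pdlim1 at 20.5 and 25.4 TPM. With a single quantified transcript, the LIM-coding TPM of Pdlim3 is its total TPM. The Pdlim1 value leaves out a transcript with an incomplete annotated coding sequence. That transcript held 43.1% of Pdlim1 TPM in replicate 1 and 44.0% in replicate 2. Its annotation cannot show whether it codes for a LIM domain, so these levels do not rank Pdlim3 and Pdlim1. Ldb3 over Pdlim3, the pair of PDZ-LIM genes known best from striated muscle, was 0.76 and 1.02 (mean 0.89 ± 0.19, SD, n = 2), at the edge of the spread of 0.89: it exceeded it before rounding, and fell below it with a pseudocount of 1 TPM in place of 0.1. Of all 9 pairs, 3 exceeded the spread and 9 had the same sign in both libraries. With replicate 2 alone 5 pairs exceeded it, and with replicate 1 alone 4 did.

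Over the 8 genes with 2 or more transcripts in the files, the leading transcript coded for less than the longest coding sequence of the gene in 5 (Ldb3, Pdlim5, Pdlim7, Pdlim1 and Fhl1). The same was true of 32.1% of 9056 protein-coding genes. In Pdlim1 the leading transcript was Pdlim1-202, whose annotated coding sequence is incomplete. In Fhl1 it was Fhl1-201, with 840 coding bases and 4 LIM domains. The longest coding sequence of Fhl1 is that of Fhl1-203, with 969 bases and 3 LIM domains. The leading transcript's share moved by at most 5.45 percentage points between the libraries, in Pdlim5, and by a median of 3.75 points over the 8 genes, beside a median of 3.91 points over the 9056.

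Between the libraries, 1 of the 10 genes passed 1.5-fold on counts scaled by the trimmed mean of M-values (TMM), against 15.9% of 17029 genes with at least 10 counts in both. That gene was Csrp3, with a log2 ratio of replicate 2 over replicate 1 of -0.60 and a 95% counting interval of -0.62 to -0.57, which includes the 1.5-fold line. No gene of the 10 passed after scaling by total gene counts or on deposited TPM (0 each), and all 10 passed, lower in replicate 2, relative to the spike-ins, where 80.0% of genes did in either direction. It was lower in replicate 2, a direction in which 4.74% of genes passed 1.5-fold. Pdlim5 followed at -0.55, Fhl2 at -0.54, Pdlim3 at -0.48, Csrp2 at -0.40 and Ldb3 at -0.27. Fhl1 was at -0.15, Csrp1 at -0.06, Pdlim1 at 0.00 and Pdlim7 at 0.01.

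At any size, 9 of the 10 genes were lower in replicate 2, against 52.1% of all genes, and 1 was higher, against 47.9%, with a median of -0.33 beside -0.02 over all genes. The 9 include Pdlim1, at 0.00 with a counting interval of -0.06 to 0.05. With DESeq2 size factors in place of TMM, 8 were lower and 2 higher. The direction depended on the scaling: 6 of 10 were lower after scaling by total gene counts, 5 of 10 on deposited TPM and 10 of 10 relative to the spike-ins. Those 3 scalings moved the median of all genes to 0.16, 0.21 and -0.85. Relative to that median, the genes' median was -0.32, -0.28 and -0.32, with 8, 10 and 8 of the 10 genes below it.

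The marker lists moved in the same comparison. Of the 12 cardiomyocyte markers 11 were lower in replicate 2, with a median of -0.44, and of 28 other Z-disc genes with enough counts 23 were lower, with a median of -0.40. The medians were 0.14 for smooth muscle and pericyte markers, -0.10 for fibroblast and valve mesenchyme markers, 3.28 for thymus markers and 2.67 for liver markers. Their part in the ratios of the 10 genes was not tested.

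**Figure D5:**
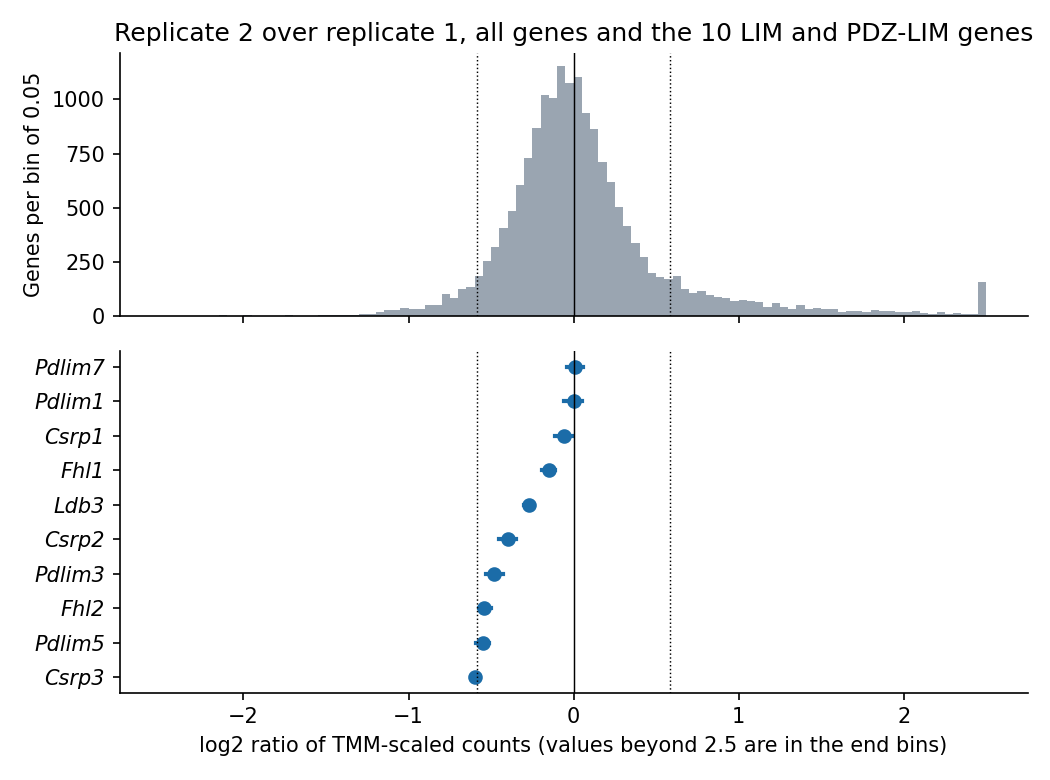
Top, number of genes in bins of the log2 ratio of TMM-scaled counts, replicate 2 over replicate 1, for 17029 genes; bottom, the same ratio for the 10 LIM and PDZ-LIM genes with 95% counting intervals as bars. Dotted lines mark 1.5-fold; Csrp3 lies on the lower line and the other 9 genes lie between the lines.

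Other genes with LIM domains gave lower levels for the most part. Both this list and the 10 genes were chosen with earlier results of these data known, so the difference may follow in part from the choice. Of 28 other LIM genes, 26 reached 1 TPM in each library and 6 reached 100 TPM, and the median was 25.7 TPM. Pdlim2 and Pdlim4, the remaining PDZ-LIM genes, had means of 20.1 ± 7.83 and 13.3 ± 5.43 TPM, and Fhl3 had 5.68 ± 0.735 TPM (SD, n = 2). Pdlim2 was at 14.5 TPM in replicate 1 and 25.6 TPM in replicate 2, so that both libraries lay below Csrp1. The highest of the list was Crip2, a small LIM protein, at 1221 ± 65.9 TPM, and the lowest was Fhl5 at 0.0650 TPM. Crip1, Crip2 and Lmo7 were the 3 of the 28 whose lower library still lay above both libraries of Csrp1, the lowest of the 10 genes by mean.

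The partners of these proteins were measured in the same libraries. Actn2, the striated muscle alpha-actinin that the PDZ domains bind, was at 1039 and 909 TPM and was the highest of 30 other Z-disc genes. Of its non-muscle relatives, Actn1 was at 21.4 and 31.4 TPM and Actn4 at 171 and 202 TPM. Myoz2, a calsarcin that binds Ldb3 and alpha-actinin, was at 214 and 145 TPM. Of the 30, 26 were at 1 TPM or more and 14 at 100 TPM or more, with a median of 69.2 TPM, and Myoz3 was the lowest at 0.0200 TPM. Csrp3 exceeded Actn2 in both libraries. All 15 kinases, phosphatases, transcription factors and adaptors listed as signalling partners were at 1 TPM or more, with a median of 31.6 TPM, from Nfatc3 at 2.20 TPM to Ilk, the integrin-linked kinase, at 340.4 TPM.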

How the data were processed

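The 2 heart RNA libraries of 1 group were analysed. The authors estimated reads on mm10 with GENCODE M4, per the labels and the notes deposited with the files; no source used here names the aligner, the quantifier or the strand setting. The deposited files hold expected counts, TPM per effective length (spike-ins included), posterior mean TPM with interval bounds (a signal per the file headers, level of the interval not given) and the percent of each gene's TPM in each transcript. Gene names, coordinates and coding sequences came from GENCODE M21 on the same assembly: all 45 transcripts of the 10 genes matched by identifier, 33 with the same length, and 22 in M21 were not in the files. LIM domains were found by the spacing of their zinc-binding residues in the translated coding sequence.

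Ratios between genes used TPM with a pseudocount of 0.1. Ratios between libraries used expected counts rounded to whole numbers, for genes with at least 10 counts in both. They were scaled by TMM in edgeR 4.0.16, with DESeq2 1.42.0 size factors as an alternative. The scaling was tested on simulated counts in which as many genes were raised as lowered. In these libraries 11.2% of genes passed 1.5-fold higher in replicate 2 and 4.74% lower. The simulation therefore cannot show how the scaling holds under such an imbalance. Counting intervals are 95% and cover counting error only. No p-values are given: with 2 libraries, the smallest value that exact sign flips allow is 0.5. The 2 libraries came from separate embryo pools. Members and lists were chosen with earlier results of these data known. Text names all 10 genes, transcripts at 5% or more in either library with the leading LIM-coding and non-LIM forms, and the extremes and close relatives in each list; Acta1, Actn4, Acta2, Des, Myh11, Mylk, Crip1, Lmo7, Pax7, Myf5, Ldb3-205, Fhl1-203 and Gm8210 were named outside that rule after their values were seen.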

Additional observations from a re-analysis of the deposited data

How the results depend on the processing

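No paired analysis was possible because there is 1 group. All 10 genes lay far above the detection levels tried, so their number could not change. The number with most of their TPM in LIM-coding transcripts was 6, or 7 on expected counts; 4 of the 6 have no other kind of transcript in the files, so only the other 6 genes could change the count. The number of pairs larger than the spread was 3; it was 2 with a pseudocount of 1 TPM, 5 on expected counts without length normalization, and it was 4 without replicate 2 and 5 without replicate 1. On expected counts the mean log2 ratio turned to 0.19 for Csrp1/Csrp2, 0.68 for Pdlim5/Pdlim7 and 0.19 for Pdlim3/Pdlim1, and with protein-coding transcripts alone it turned to 0.18 for Pdlim3/Pdlim1. These alternatives drop the division by length and the transcripts that do not code for protein, respectively. The number of genes past 1.5-fold between the libraries was 1; it was 0 with total gene counts, 0 with deposited TPM, 0 at a 2-fold threshold and 10 with spike-in scaling, and the ratio has no value without either library. Across single genes and pairs, 141 alternative values moved by no more than the SD or the counting interval and 58 moved by more. Another 4, all ratios between related genes, turned sign. A sign change between libraries was counted as such only for a gene past 1.5-fold. Some of the 58 therefore also changed sign, such as Ldb3 from -0.27 to 0.02 on deposited TPM. Leaving out 1 library cannot move a mean of 2 past their SD, so such values fell among the 141 in advance. So did the shares of the 4 genes with LIM-coding transcripts alone. Rescaling TPM without hemoglobin and mitochondrial genes raised all 10 levels, Csrp3 to 1797 TPM. With 10 ng of input, 2 libraries and an annotation that lacks some transcripts, transcript shares rest on the authors' model.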
